A study of Mus musculus with 14 samples.

Results

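The ONECUT family of the mouse consists of Onecut1, Onecut2 and Onecut3, and the 3 genes were followed here in chromatin of small intestinal organoids. Members were found by position: every H3K27ac region and every ONECUT2 site was given to the protein-coding gene whose span lay nearest, up to 100 kb away, and those given to a family gene were kept. This gave 13 of 55050 H3K27ac regions, 5 at Onecut1, 4 at Onecut2 and 4 at Onecut3, and 4 of 7268 listed ONECUT2 sites, 1 at Onecut1, 2 at Onecut2 and 1 at Onecut3. All 13 regions passed the filter on low counts. A region may act on a gene other than the one it lies nearest to.

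Organoids came from a female Lgr5GFPDTR/+ mouse, which carries green fluorescent protein and the diphtheria toxin receptor at Lgr5, a stem cell gene, and all groups share this allele and line, labelled line26 and otherwise wild type. In the RANKL arm organoids received CHIR99021 at 3 µM, which activates Wnt signalling, with valproic acid at 1.5 mM, a histone deacetylase inhibitor, for 3 days, then 1 day of ENR medium, then 100 ng/mL RANKL until day 6. In the ENR arm they were kept in ENR medium, which holds EGF, Noggin and R-spondin 1. The comparison is therefore of the whole protocol for microfold (M) cells, the antigen-sampling cells of the gut epithelium, with ENR medium, and not of RANKL alone. Each arm had 3 H3K27ac and 3 ONECUT2 libraries from 3 differentiation experiments, made by ChIPmentation, where chromatin still bound to the antibody is cut and tagged with adapters by the Tn5 transposase. The organoids are the line of 1 mouse, so the spread behind every p-value is between experiments on that line and not between animals.

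ONECUT proteins are transcription factors that bind DNA through a single CUT domain and a homeodomain. ONECUT1, also named HNF-6, is known for its part in the development of liver, bile ducts and pancreas, and ONECUT2 overlaps with it there and is also made in the intestinal epithelium. ONECUT3 is best known from the nervous system and the gut. H3K27ac is histone H3 acetylated at lysine 27 and is found at active promoters and enhancers. In organoids with many cell types, more cells carrying the mark and more mark per cell cannot be told apart.

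The promoter of Onecut1 is shown because an H3K27ac region lies over it and showed no gain of the size found at region 5 of this gene, described below. Of the family only Onecut1 was matched in the RefSeq promoter table (GRCm38.p6). The 250 bases before the gene start, on the plus strand at chr9:74861671-74861920, are given 5′ to 3′ with CpG dinucleotides in capitals.
Onecut1: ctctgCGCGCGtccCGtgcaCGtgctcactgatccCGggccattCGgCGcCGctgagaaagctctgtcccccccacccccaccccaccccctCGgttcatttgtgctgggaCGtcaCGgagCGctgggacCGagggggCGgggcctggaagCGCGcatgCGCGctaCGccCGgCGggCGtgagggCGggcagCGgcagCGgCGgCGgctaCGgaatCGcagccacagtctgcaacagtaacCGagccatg
The stretch holds 31 CpG, against a median of 6 over 32851 mouse promoters of the same length, and its GC content is 71.6%, against a median of 52.4%. The core ONECUT motifs ATTGAT and ATCGAT were searched on both strands and counted separately. Neither is in this window, and 7.4% of all promoters of this length hold at least one.

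The regions together drew 2745451, 3252533 and 3902301 H3K27ac reads in the libraries of the RANKL arm and 5434172, 9160267 and 5578062 in the ENR arm, so low regions were counted less precisely with RANKL. Regions were compared in CPM (read counts relative to a library total scaled by TMM), with edgeR's quasi-likelihood test and a Benjamini-Hochberg adjusted p under 0.05 as the call. Of the 10 M cell marker genes listed, 9 were higher, with a summed level of 996 to 1091 CPM in RANKL organoids and 407 to 427 CPM in ENR organoids. Epithelial markers were high in both arms, at 1452 to 1521 CPM in RANKL organoids and 1537 to 1691 CPM in ENR organoids, with 1 of 6 higher and 5 lower. Of other cell types, mesenchyme markers summed to 197 to 212 CPM in RANKL organoids and 138 to 154 CPM in ENR organoids, with 3 of 5 higher. Pdgfrb, with the largest rise, stood at 64.4 ± 4.18 and 11.9 ± 2.12 CPM. The 2 not called did not rise: Pdgfra stood at 82.7 ± 7.04 and 92.5 ± 3.94 CPM and Col1a1 at 20.9 ± 1.14 and 21.7 ± 1.44 CPM (SD, n = 3 each). Leukocyte (Cd3e without a region), enteroendocrine, hepatocyte (Alb and Serpina1a without a region) and neuron (Elavl4 without a region) lists had 2, 1, 0 and 1 members called higher and 1, 1, 1 and 0 called lower, and of 7 enterocyte markers 1 was higher and 2 were lower. Over all genes tested, 25.0% were called higher and 26.9% lower. The part of these cell types in the results below was not tested.

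Across the family 4 regions were higher with RANKL, 2 were lower and 7 were not called. Over all 54765 regions tested, 14.8% were called higher and 21.0% lower, and with 13 regions the 4 and 2 calls are given as a description beside these shares. By position, 3 of the 4 higher ones lie beyond the upper end of Onecut1 and the other lies outside Onecut3. Both lower ones lie over a gene end, of Onecut2 and of Onecut3. With DESeq2 in place of edgeR 2 regions were higher and 0 lower, so no pattern of position is drawn from these calls. In 4 regions all RANKL libraries lay above all ENR libraries, and in 2 they lay below, against 20.6% and 24.2% of all regions.

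**Figure D1:**
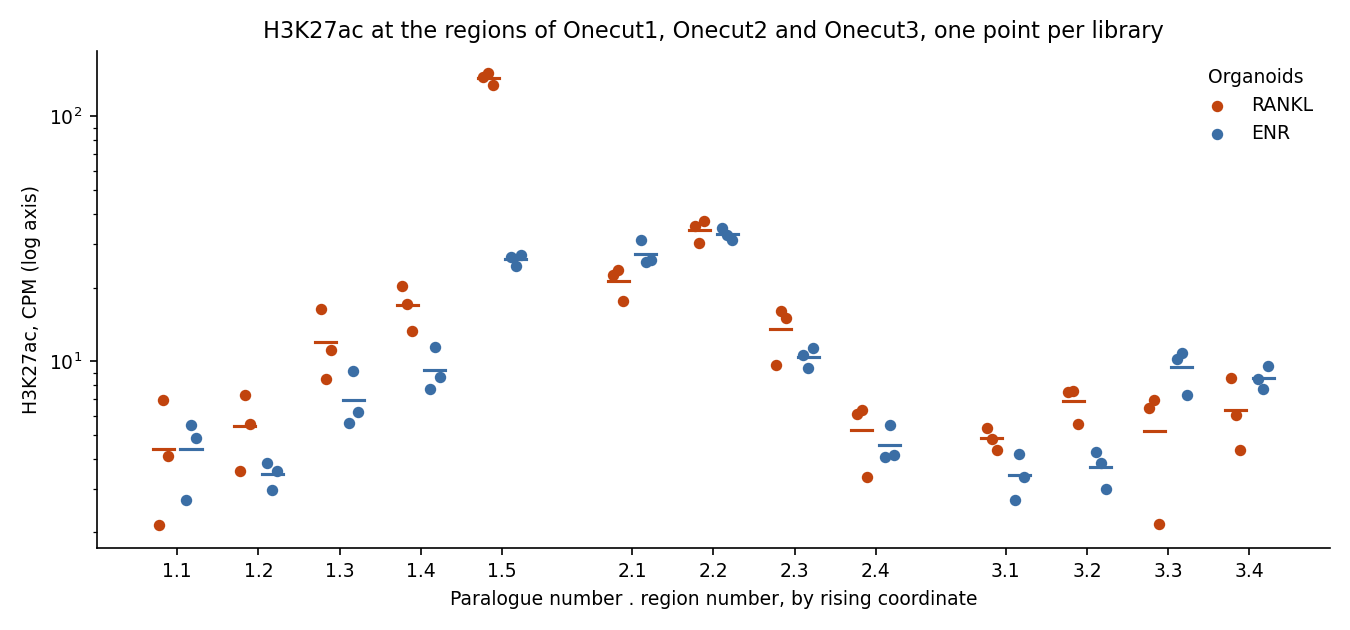
H3K27ac in CPM (log axis) at each of the 13 regions, with tick labels giving the paralogue number and then the region number along the chromosome; each point is a library and each bar the mean of 3. Region 5 of Onecut1 stands apart, at 134 to 150 CPM in RANKL organoids and 24.5 to 27.2 CPM in ENR organoids.

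At Onecut1 (chr9:74861921-74889648), H3K27ac summed over the 5 regions was 3.97-fold higher in RANKL organoids. On the scale used for whole genes, the level per 2 kb region was 41.1, 41.8 and 38.2 CPM in the RANKL libraries and 9.25, 10.9 and 10.0 CPM in the ENR libraries. The arms were far apart beside their SDs of 1.90 CPM with RANKL and 0.833 CPM in ENR. The log2 fold was 1.99 ± 0.078 (SE, 95% interval 1.83 to 2.14, adjusted p = 5.87e-37, edgeR), the 150th largest of 16035 genes tested. Among these genes 25.0% were called higher and 26.9% lower.

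Most of this came from region 5, at chr9:74908394-74910394 and 18.7 kb beyond the upper end of the gene. It held 145, 150 and 134 CPM in RANKL organoids (406, 496 and 556 reads) and 26.7, 24.5 and 27.2 CPM in ENR organoids (138, 223 and 145 reads). The lowest RANKL library thus exceeded the highest ENR library several times over. Means were 143 ± 8.03 CPM with RANKL and 26.1 ± 1.41 CPM in ENR (SD, n = 3 each), a 5.49-fold difference with a log2 fold of 2.46 ± 0.12 (95% interval 2.23 to 2.68, adjusted p = 1.18e-74, edgeR). By mean level the region was 60th of 54765 in RANKL organoids and 13109th in ENR organoids, above 99.9% of all regions with RANKL and above 76.1% in ENR. The call held under every alternative tried. Log2 folds were 2.41 to 2.71, and limma on the authors' score, which is not on a log2 scale, gave 1.85.

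Region 4 (chr9:74904063-74906063), 14.4 kb beyond the gene, contains the ONECUT2 site of this locus. Its level was 20.3, 17.2 and 13.3 CPM in RANKL libraries and 7.73, 11.4 and 8.63 CPM in ENR libraries. The arms did not overlap, and the region was higher by a log2 fold of 0.81 ± 0.21 (95% interval 0.40 to 1.22, adjusted p = 6.02e-04, edgeR). Region 3 (chr9:74896543-74898543), 6.9 kb beyond the gene, had 16.4, 8.45 and 11.1 CPM with RANKL and 5.60, 9.13 and 6.19 CPM in ENR. It was called higher by 0.72 ± 0.25 (adjusted p = 0.015, edgeR) although RANKL replicate 2 lay below ENR replicate 2. Without ENR replicate 1, ENR replicate 3 or RANKL replicate 1 the adjusted p of region 3 was 0.0858, 0.0618 or 0.226 (edgeR), and with DESeq2 it was 0.0571.

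The regions inside the gene carried little of the mark. Region 1 (chr9:74860811-74862811), over the gene start and the promoter shown above, also overlaps the long noncoding RNA gene Gm33562. It held 2.14, 6.94 and 4.10 CPM in RANKL organoids and 2.71, 5.50 and 4.88 CPM in ENR organoids, from 6 to 23 and 14 to 50 reads. The means were 4.40 ± 2.41 CPM with RANKL and 4.36 ± 1.47 CPM in ENR, and the log2 fold was 0.00051 ± 0.43, with a 95% interval of -0.85 to 0.85. Region 2 (chr9:74866044-74868044), which overlaps the noncoding gene Gm38678, held 3.57, 7.25 and 5.55 CPM with RANKL and 3.86, 2.97 and 3.56 CPM in ENR. Its log2 fold of 0.68 ± 0.39 was not called (95% interval -0.077 to 1.44, adjusted p = 0.165, edgeR). Changes within these intervals were not detectable at this depth.

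Whether the regions of a gene changed unequally was tested with edgeR's diffSpliceDGE, which sets the fold of a region against that of its gene, over 41171 regions. Region 5 took 77.3, 79.0 and 79.8% of the Onecut1 reads in RANKL libraries and 57.3, 45.8 and 53.9% in ENR libraries. Its fold lay 0.42 above that of the gene on the log2 scale (adjusted p = 2.98e-06). Each of the other 4 regions lay below the gene, by -1.28 (region 1), -0.81 (region 2), -0.79 (region 3) and -0.72 (region 4), with adjusted p of 2.07e-05, 0.0152, 1.22e-04 and 2.21e-05. Region 2 lost this call without ENR replicate 1 (adjusted p = 0.0755) or RANKL replicate 1 (adjusted p = 0.0876). Of all regions tested in this way, 13.3% were called above their gene and 11.8% below it. With region 5 left out, an alternative chosen after seeing the data, the other 4 regions together were still higher by a log2 fold of 0.79 ± 0.14 (95% interval 0.52 to 1.07, adjusted p = 1.06e-06, edgeR). With only the regions within 10 kb the log2 fold was 0.72 (adjusted p = 5.92e-04), and with those at the gene ends alone it was 0.32 (adjusted p = 0.527).

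**Figure D2:**
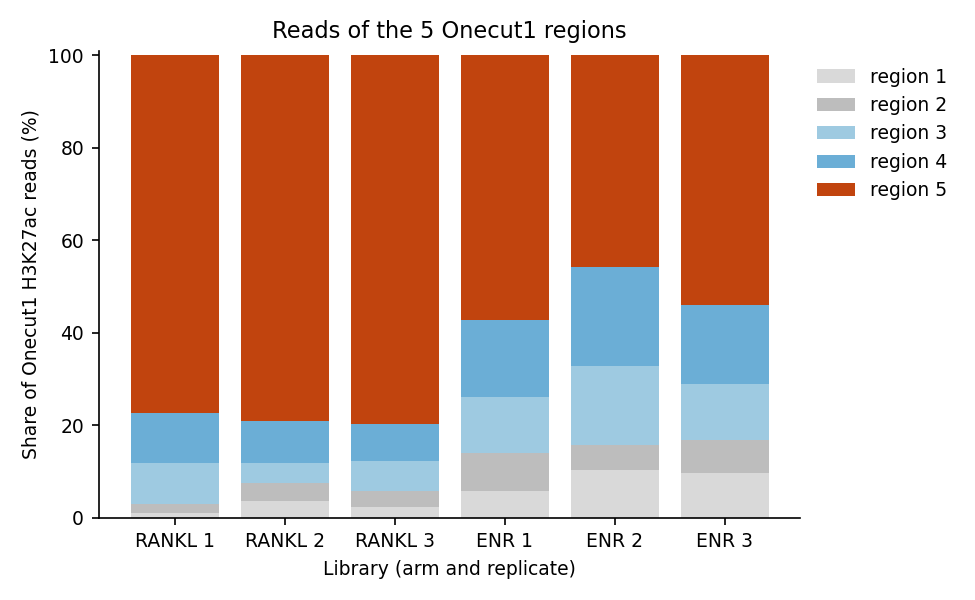
Share (%) of the reads of the 5 Onecut1 regions that fell in each region, one stacked bar per library, RANKL libraries left and ENR libraries right. Region 5 takes 78.7 ± 1.24% with RANKL and 52.3 ± 5.90% in ENR (mean ± SD, n = 3 each).

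Onecut2 (chr18:64340032-64398488) encodes the factor that was immunoprecipitated. Its 4 regions together held 20.3, 21.0 and 20.8 CPM per region in RANKL libraries and 20.1, 18.6 and 18.0 CPM in ENR libraries. RANKL libraries lay just above the ENR libraries, by an amount close to the spread. The log2 fold was 0.13 ± 0.087 and was not called (95% interval -0.040 to 0.31, adjusted p = 0.194, edgeR), so a gain of over 0.31 lies outside the interval. Scaling factors computed over genes put all gene folds 0.13 above those with the factors of the regions; with the factors of the regions, an alternative chosen after seeing the data, Onecut2 had 0.0057 and Onecut1 1.86, and the split over all genes was 2773 higher and 5882 lower in place of 4003 and 4308.

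Within Onecut2 only region 1 was called, and the test of unequal change within the gene called no region. Region 1 (chr18:64338957-64340957), over the lower end of the gene, had 22.5, 23.5 and 17.6 CPM with RANKL and 31.3, 25.4 and 25.9 CPM in ENR. Every RANKL library lay below every ENR library, and the region was called lower, by -0.38 ± 0.15 (95% interval -0.68 to -0.086, adjusted p = 0.0343, edgeR). With the differentiation experiment as a block the log2 fold was -0.37 and the adjusted p 0.0512, so the call was lost. It was also lost without ENR replicate 1 (adjusted p = 0.2) or RANKL replicate 3 (adjusted p = 0.282), with DESeq2 (adjusted p = 0.132), with library size only (adjusted p = 0.127) and with limma on the authors' score (adjusted p = 0.216). With a trend over signal removed the log2 fold was -0.14 (adjusted p = 0.558).

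Region 2 (chr18:64349681-64351681), inside the gene, was the strongest of the locus. It held 35.7, 30.5 and 37.4 CPM in RANKL organoids and 35.0, 32.9 and 31.3 CPM in ENR organoids. The arms overlapped, with a log2 fold of 0.068 ± 0.13 (95% interval -0.18 to 0.32), and only with a trend over signal removed was it called, at 0.38 (adjusted p = 0.0105, edgeR). Region 3 (chr18:64391279-64393279), also inside the gene, had 9.64, 16.0 and 15.0 CPM with RANKL and 10.6, 9.35 and 11.3 CPM in ENR, a log2 fold of 0.41 ± 0.22 that was not called (adjusted p = 0.131, edgeR). RANKL replicate 1 was the low library there, and without it the log2 fold was 0.58 with an adjusted p of 0.0334. Region 4 (chr18:64405384-64407384), 6.9 kb outside, held 6.07, 6.34 and 3.38 CPM with RANKL and 4.06, 5.50 and 4.13 CPM in ENR, and was not called (log2 fold 0.15 ± 0.36). None of the 4 regions of Onecut2 passed the test of unequal change within the gene, where region 1 came closest at -0.25 (adjusted p = 0.0632); without RANKL replicate 1, region 3 passed it at 0.41 (adjusted p = 0.0463).

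Onecut3 (chr10:80494906-80517266) had the least H3K27ac of the family. Its 4 regions held 7.64, 6.99 and 4.66 CPM per region in RANKL libraries and 6.38, 6.75 and 5.78 CPM in ENR libraries. The arms overlapped, and the summed log2 fold was -0.0057 ± 0.16 (95% interval -0.32 to 0.31, adjusted p = 0.98, edgeR). This sum joined regions that moved in opposite directions. Region 2 (chr10:80482433-80484433), 10.5 kb outside the gene, had 7.50, 7.55 and 5.55 CPM with RANKL and 4.25, 3.85 and 3.00 CPM in ENR, and was higher by 0.87 ± 0.36 (95% interval 0.17 to 1.57, adjusted p = 0.0445, edgeR). Region 3 (chr10:80493831-80495831), over the lower end of the gene, had 6.43, 6.94 and 2.17 CPM with RANKL and 10.2, 10.8 and 7.31 CPM in ENR, and was lower by -0.94 ± 0.29 (95% interval -1.52 to -0.36, adjusted p = 0.00603, edgeR). In both regions the arms did not overlap.

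In the test of unequal change, region 2 lay 0.69 above Onecut3 as a whole (adjusted p = 0.0267) and region 3 lay below it, at -0.56 (adjusted p = 0.0302). Region 2 took 30.2 ± 3.47% of the reads of the gene in RANKL organoids and 14.7 ± 1.82% in ENR organoids, and region 3 took 21.2 ± 7.25% and 37.3 ± 5.10% (SD, n = 3 each). These regions rest on 9 to 98 reads per library. The call of region 2 was lost without each of 5 libraries in turn, all but RANKL replicate 3, with adjusted p of 0.0523 to 0.137, and that of region 3 without ENR replicate 2 (adjusted p = 0.0728) or RANKL replicate 3 (adjusted p = 0.217). With DESeq2 the adjusted p were 0.0688 for region 2 and 0.0544 for region 3, and with limma on the authors' score 0.0798 and 0.137. With a trend over signal removed, region 2 had a log2 fold of 0.58 and was not called (adjusted p = 0.211). The calls of unequal change were lost without ENR replicate 2, ENR replicate 3, RANKL replicate 2 or RANKL replicate 3 for region 2 (adjusted p of 0.0686 to 0.0806) and without ENR replicate 1, ENR replicate 2, RANKL replicate 1 or RANKL replicate 3 for region 3 (0.052 to 0.189).

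The other regions of Onecut3 were not called. Region 1 (chr10:80474451-80476451), 18.5 kb outside, overlaps the noncoding gene Gm40716 and holds the ONECUT2 site. It had 5.36, 4.83 and 4.34 CPM with RANKL and 2.71, 4.18 and 3.38 CPM in ENR, a log2 fold of 0.46 ± 0.40 with arms that did not overlap (adjusted p = 0.39, edgeR). Region 4 (chr10:80508531-80510531), inside the gene, had 8.57, 6.04 and 4.34 CPM with RANKL and 8.50, 7.70 and 9.56 CPM in ENR, a log2 fold of -0.47 ± 0.29 (adjusted p = 0.203, edgeR). With only the regions within 10 kb, which are regions 3 and 4, Onecut3 was lower, by -0.51 (adjusted p = 0.0376, edgeR).

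**Figure D3:**
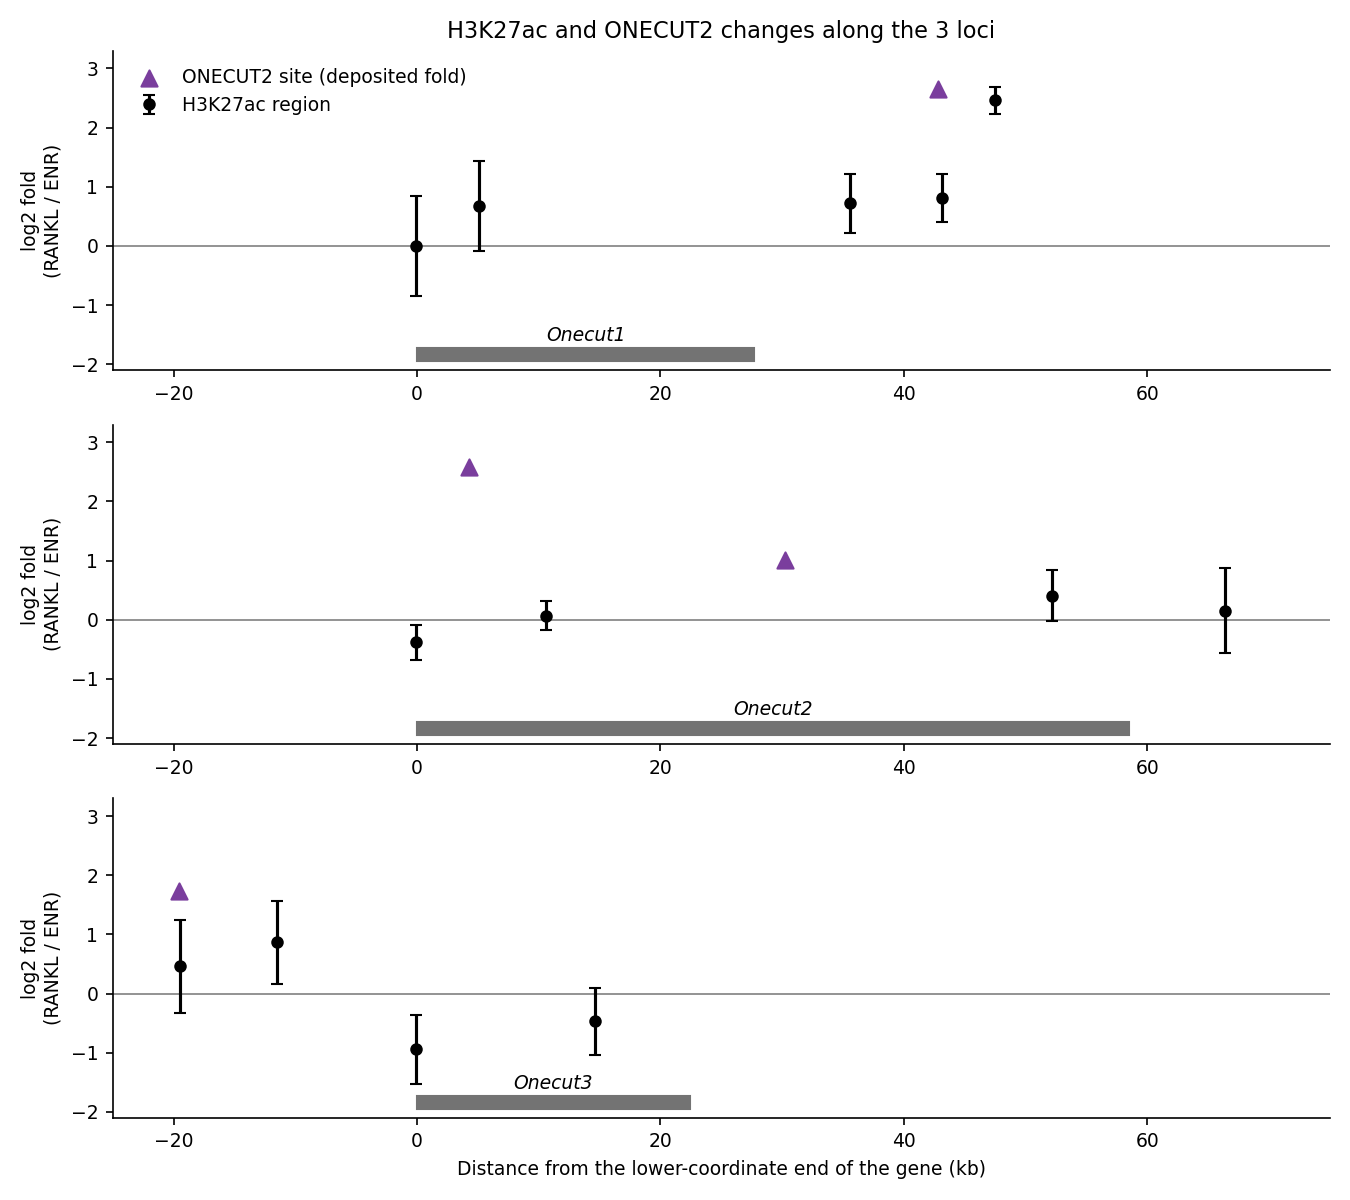
Log2 fold (RANKL over ENR) along each locus by distance from the lower-coordinate end of the gene in kb; circles are H3K27ac regions with 95% intervals, triangles are ONECUT2 sites with the authors' deposited fold, which has no interval, and grey bars are gene spans. The Onecut1 gain lies beyond the gene at the right, beside a site. The regions over the lower ends of Onecut2 and Onecut3 lie below 0, and that of Onecut1 lies at 0.00051. Both lower calls were lost with DESeq2 (adjusted p = 0.132 and 0.0544), and no pattern of position is drawn.

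Set beside each other on the scale for whole genes, the order of the paralogues differed between arms. In RANKL organoids Onecut1 had the most H3K27ac per region, at 40.4 ± 1.90 CPM, followed by Onecut2 at 20.7 ± 0.397 CPM and Onecut3 at 6.43 ± 1.57 CPM. In ENR organoids Onecut2 came first, at 18.9 ± 1.06 CPM, followed by Onecut1 at 10.1 ± 0.833 CPM and Onecut3 at 6.31 ± 0.490 CPM (SD, n = 3 each). In each arm the libraries of neighbouring genes in these orders did not overlap.

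Ratios within a library do not depend on how libraries are scaled. The log2 ratio of Onecut1 to Onecut2 reads was 1.34, 1.31 and 1.20 in RANKL libraries and -0.80, -0.45 and -0.52 in ENR libraries. Onecut1 thus held more reads than Onecut2 in every RANKL library and fewer in every ENR library, and the ratio was 3.66-fold higher with RANKL. For Onecut1 to Onecut3 it was 2.74, 2.89 and 3.35 with RANKL and 0.86, 1.01 and 1.11 in ENR, a 4.00-fold difference. For Onecut3 to Onecut2 it was -1.40, -1.58 and -2.15 with RANKL and -1.65, -1.46 and -1.64 in ENR, and the arms overlapped. A two-sided exact permutation test gave p = 0.1 for both ratios that involve Onecut1, the smallest value 3 against 3 libraries allow, and p = 0.9 for the other; adjusted over the 3 pairs these are 0.15 and 0.9. With region 5 left out of Onecut1, chosen after seeing the data, the log2 differences in its ratios were 0.72 to Onecut2 and 0.85 to Onecut3, in place of 1.87 and 2.00. The change of order then disappeared: the other 4 Onecut1 regions held 119, 132 and 141 reads with RANKL and 103, 264 and 124 in ENR, fewer than Onecut2 in every library of both arms (207, 253 and 304 reads with RANKL and 419, 665 and 387 in ENR). With only the regions within 10 kb, the differences were 0.59 for Onecut1 to Onecut2, 1.30 for Onecut1 to Onecut3 and -0.70 for Onecut3 to Onecut2, each with an exact permutation p = 0.1.

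ONECUT2 binding at the family was read from the authors' deposited table, which gives mean normalised reads per arm and holds no values per library. Each family gene had at least 1 listed site, as did 4299 of the 16035 genes tested for H3K27ac. The table holds sites with an FDR of up to 0.0496, and 99.9% of them are higher with RANKL, so the direction at the family sites is that of the table. The listed log2 fold has a median of 1.86 and a middle range of 1.48 to 2.34.

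The strongest family site lies inside Onecut2 itself, at chr18:64344139-64344539 and 4.3 kb from the lower end of the gene. In the authors' deposited table it averages 175 normalised reads in RANKL organoids and 28.2 in ENR organoids, with a log2 fold of 2.58 and an FDR of 6.54e-23. By p-value it is 40th of the 7268 listed sites and by RANKL mean 91st, as given by the authors' deposited table. It lies in no H3K27ac region: Onecut2 region 1 ends 3.2 kb away on one side and region 2 starts 5.1 kb away on the other. A second Onecut2 site, at chr18:64370070-64370470 and 30.2 kb into the gene, has 14.9 normalised reads with RANKL and 6.99 in ENR in the authors' deposited table. With a log2 fold of 1.01 and an FDR of 0.039 it stands near the end of that table, at rank 7211, and is also outside every region.

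The Onecut1 site (chr9:74904515-74904915) is 14.9 kb beyond the gene, inside region 4 and 3.5 kb from region 5. It has 28.4 normalised reads in RANKL organoids and 3.92 in ENR organoids, a log2 fold of 2.66 and an FDR of 5.45e-07 in the authors' deposited table. This is the largest listed fold of the family sites, on a low level in ENR. H3K27ac of the region that holds the site was 0.81 higher on the log2 scale, while that of the neighbouring region 5, which holds no listed site, was 2.46 higher.

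The Onecut3 site (chr10:80475112-80475512) is 19.4 kb outside the gene, inside region 1 and the noncoding gene Gm40716. In the authors' deposited table it has 97 normalised reads with RANKL and 28 in ENR, a log2 fold of 1.74 and an FDR of 1.17e-09. By RANKL mean it is 489th of the listed sites in the authors' deposited table, yet it lies in 1 of the weakest family regions, with 15 to 18 reads of H3K27ac in RANKL libraries and 14 to 38 in ENR libraries. Of the 4 family sites 2 overlap a region, beside 40.6% of all listed sites.

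**Figure D4:**
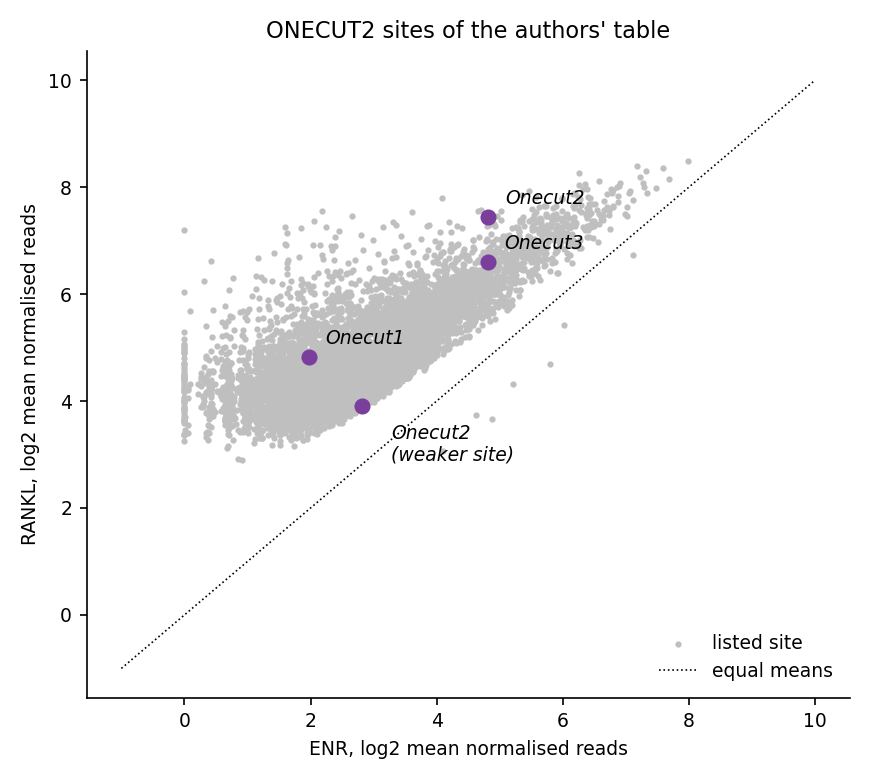
ONECUT2 sites of the authors' deposited table by log2 mean normalised reads in RANKL organoids (vertical) and ENR organoids (horizontal); grey points are all 7268 listed sites, coloured points the 4 family sites, and the dotted line marks equal means. The strong Onecut2 site and the Onecut3 site lie at 4.82 and 4.81 in ENR and differ with RANKL, at 7.45 and 6.6.

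Nothing at the family lay close to the 100 kb limit, but on most sides the nearest-gene rule set a closer bound. Other protein-coding spans lie 63.2 kb beyond the upper end of Onecut1, 63.9 and 58.1 kb from Onecut2, and 60.9 and 2.3 kb from Onecut3. The distances of members therefore do not show that the limit had no effect. The farthest members inside were region 5 of Onecut1, at 18.7 kb, and the Onecut3 site, at 19.4 kb. Beyond the limit, the closest region with a family gene as its nearest gene was 121.6 kb from Onecut1. It had 18, 9 and 20 reads in RANKL libraries and 10, 37 and 29 in ENR libraries. The closest such site was 205.1 kb from Onecut1, with a log2 fold of 1.36 in the authors' deposited table.

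Genes with a pattern like that of each member were sought among 9746 genes with at least 2 regions, with likeness measured as the root mean square difference of mean-centred log2 CPM over the 6 libraries. Closest to Onecut1 were Pde1c (0.034), Gpr55 (0.042), Gm38821 (0.060), Serpinb1c (0.061) and Slc2a6 (0.064), with log2 folds of 1.92 to 2.04. Pde1c, a phosphodiesterase gene, had 112, 109 and 107 CPM in RANKL libraries and 24.6, 28.5 and 27.2 CPM in ENR libraries. Closest to Onecut2 were Bche (0.023), Pard6b (0.024), Cdc42bpb (0.025), Tmc4 (0.026) and Sgpp2 (0.027), of which Cdc42bpb was called higher, by 0.15 ± 0.056. Closest to Onecut3 were Ear10 (0.065), Upk2 (0.068), Upk3bl (0.086), Wfikkn2 (0.088) and Exosc9 (0.089), none of which was called. All these genes were picked for likeness over both arms. Folds near that of the member therefore follow from the choice and are no separate result.

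Genes that bear on ONECUT function were listed in 3 groups, with 27 of 30 having a region (Foxa3, Neurog3 and Cyp7a1 had none). In all 14 were higher, 4 lower and 9 not called, with a median log2 fold of 0.22 beside 0.013 for all genes tested, of which 25.0% were higher and 26.9% lower. With the scaling factors of the regions, chosen after seeing the data, 9 were higher and 5 lower. Of the 27 genes, 19 have a ONECUT2 site in the authors' deposited table, beside 4299 of all 16035 genes tested. The listed genes had up to 15 regions each, beside a median of 2 over all genes with a region. How far the number of regions bears on these counts was not tested.

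Among the other genes with a CUT domain, 2 of 4 were higher and none was lower. The counts and calls per group, here and below, use the scaling factors computed over genes. With those of the regions every gene fold is 0.13 lower, so the calls of small rises depend most on this choice. Satb1, a chromatin organiser best known from T cells, had 19.2, 14.3 and 15.6 CPM with RANKL and 8.45, 9.53 and 6.34 CPM in ENR, a log2 fold of 0.98 ± 0.24 (adjusted p = 3.48e-04, edgeR). Cux1 had 207, 183 and 205 CPM with RANKL and 163, 163 and 180 CPM in ENR, a log2 fold of 0.24 ± 0.062 (adjusted p = 0.00102, edgeR). These arms did not overlap. Cux2 averaged 14.2 ± 4.60 CPM with RANKL and 11.2 ± 0.584 CPM in ENR (adjusted p = 0.177, edgeR; SD, n = 3 each) and was not called. Onecut1, at 1.99, had the largest log2 fold of the 7 tested genes of both groups with a CUT domain.

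Of 16 tested factors of endoderm and intestinal identity, 9 were higher and 3 lower, with a median log2 fold of 0.19. Prox1, a homeobox factor of liver, pancreas and secretory gut cells, had 52.5 ± 4.13 CPM with RANKL and 30.0 ± 1.27 CPM in ENR (log2 fold 0.81 ± 0.12, adjusted p = 1.27e-08, edgeR). The bile acid receptor gene Nr1h4 was lower by -0.37 ± 0.063 and Sox9, a factor of crypt and duct progenitors, by -0.32 ± 0.068 (adjusted p = 8.65e-07 and 4.32e-05, edgeR).

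Of 7 tested genes described as ONECUT targets in other organs or gut, 3 were higher and 1 was lower, with a median log2 fold of 0.22. Tff3, a peptide secreted by goblet cells, had 23.5, 33.6 and 32.4 CPM with RANKL and 13.1, 12.6 and 12.1 CPM in ENR. Its log2 fold of 1.26 ± 0.18 (adjusted p = 7.15e-09, edgeR) was the largest of the 27 tested genes in these 3 groups. Pck1, an enzyme of gluconeogenesis, had 56.4 ± 5.03 CPM with RANKL and 79.4 ± 3.16 CPM in ENR (log2 fold -0.49 ± 0.095, adjusted p = 1.19e-05, edgeR).

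**Figure D5:**
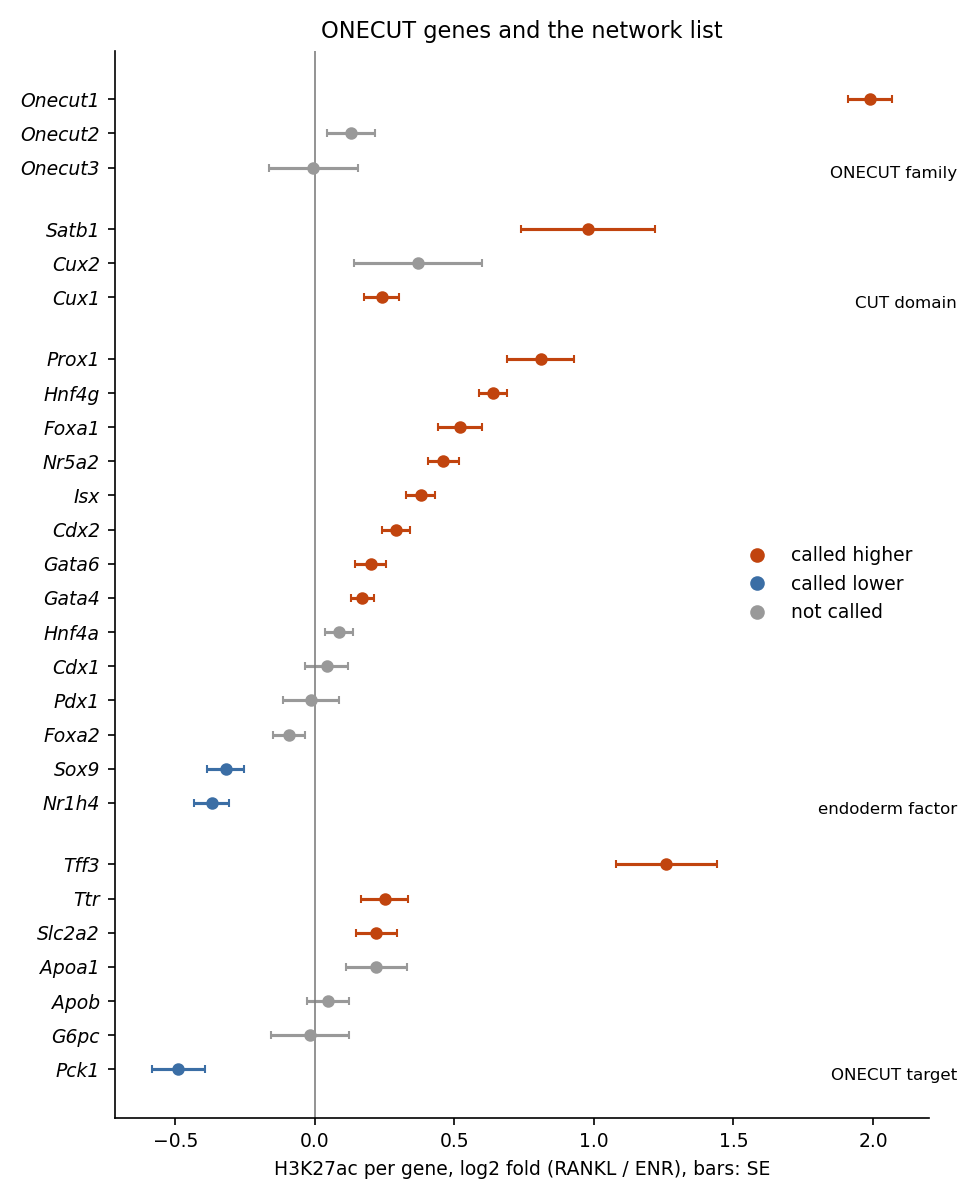
Log2 fold of H3K27ac per gene (RANKL over ENR, bars are SE) for the 3 ONECUT genes, above, and tested genes of the 3 listed groups; colours mark genes called higher, called lower or not called at an adjusted p under 0.05. Onecut1, at 1.99, lies to the right of all genes drawn, and Tff3 follows at 1.26.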

How the data were processed

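The members, lists and tests were chosen with earlier results of these data known. The submitters' processing notes name mm10 as the build, and coordinates are as deposited; regions end 2000 above their start, which leaves open whether starts count from 0. The authors deposited raw read counts for 55050 H3K27ac regions in 6 libraries, and a normalised score, which equals the scaled logarithm of count plus 1 to within 5e-06 and served only as an alternative. Differences in this score are in SDs of the log counts of a library and are not log2 folds. For ONECUT2 the authors deposited a DiffBind comparison, as the submitters' processing notes name it, with log2 means, log2 folds, p-values and FDR per site. Aligner, peak caller and DiffBind version: not given in the sources used here. Inputs and ONECUT2 values per library were not analysed here.

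Regions and sites were assigned to 21900 protein-coding spans of a RefSeq table (GRCm38.p6). Regions, and sums over the regions of a gene, were tested with edgeR 4.0.16 (R 4.3.3) with TMM, filterByExpr and adjustment over all 54765 regions or 16035 genes. Alternatives used limma 3.58.1, DESeq2 1.42.0, other scalings, filters and windows, a block, and each library left out. Same-group libraries differed by more than sampling noise, so none was counted as a repeat. The labels number both arms by differentiation experiment and so pair the libraries; deviations from the group means of same-numbered libraries correlated at 0.014, -0.027 and -0.0073. The fit without the block is reported, and the fits were tested on simulated data. A few listed genes are counted but not reported here by name. Named genes are all members, the listed genes with the 4 largest called rises and falls, the other genes with a CUT domain, gene neighbours, and the 5 genes most like each member.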

Additional observations from a re-analysis of the deposited data

How the results depend on the processing

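The higher calls of Onecut1 as a gene and of its region 5 held in all alternatives, except Onecut1 with gene ends only (0.32, adjusted p = 0.527). Onecut1 region 4 lost its call only against a fold of at least 1.5 (adjusted p = 0.273). With gene ends only 2598 genes were higher and 2718 lower, and Onecut2 had -0.052. Onecut3 as a gene had 0.0093 with DESeq2, 0.0058 with the replicate block, 0.061 with the signal trend removed and -0.51 within 10 kb (adjusted p = 0.0376), and -0.14 to 0.20 with libraries left out in turn. Over all regions limma on the authors' score called 5297 higher and 6022 lower, and a fold of at least 1.5 left 3012 and 2613. Family regions called higher and lower numbered 2 and 0 with limma on the score, 2 and 0 with DESeq2, 1 and 0 at a fold of at least 1.5, and 2 to 4 and 0 to 2 with libraries left out; 1 was lower with library size only, the signal trend removed or the replicate block. With the trend removed 4 were higher, but Onecut2 region 2 replaced Onecut3 region 2 among them. The block, which pairs libraries by experiment, changed only the call of Onecut2 region 1 among the family's regions and genes. The test of unequal change called 1 to 3 family regions above and 3 to 5 below with libraries left out. The network list had 9 genes higher with the scaling factors of the regions, chosen after seeing the data. Sites within 10 kb were 0 at Onecut1 and 0 at Onecut3, an FDR of up to 0.01 left 1 at Onecut2, and counting any site within 100 kb gave Onecut3 2. The Onecut3 to Onecut2 ratio differed by -0.28 to 0.090 with libraries left out and by -0.70 within 10 kb. Among regions not called, Onecut1 region 1 had log2 folds of -0.00043 with no filter, -0.019 with the block, -0.34 with the signal trend removed and -0.45 to 0.28 with libraries left out. Onecut2 region 2 had -0.0052 to 0.15 with libraries left out. Onecut2 region 4 had -0.15 with the trend removed and -0.021 to 0.42 with libraries left out. With limma on the score, in score units, Onecut1 region 1 had -0.22 and Onecut2 region 4 had -0.059. The cause of these differences was not tested. Regions with under 100 reads per library limit what could be called, most of all at Onecut3.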

Other observations

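The genes next to the family were also measured. On the chromosome of Onecut1, the span of Wdr72 ends 578.7 kb below the lower end of the gene. Wdr72 had 15.8 ± 2.40 CPM in RANKL organoids and 7.27 ± 1.43 CPM in ENR organoids (log2 fold 1.12 ± 0.25, adjusted p = 8.78e-05, edgeR). Fam214a, 63.2 kb from the upper end, had 108 ± 6.36 and 85.4 ± 5.49 CPM (0.33 ± 0.081, adjusted p = 3.63e-04, edgeR). The neighbours of Onecut2, St8sia3 and Fech, were not called (adjusted p = 0.656 and 0.277). At Onecut3, Tcf3 was lower, with 82.4 ± 2.06 CPM with RANKL and 108 ± 1.32 CPM in ENR (adjusted p = 2.78e-05), and Atp8b3, only 2.3 kb away, was higher, with 11.2 ± 1.87 and 5.91 ± 1.35 CPM (adjusted p = 0.00491, edgeR; SD, n = 3 each).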
